A study of Mus musculus with 8 samples.

Results

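The expression of 7 genes that mature muscle fibers keep low or use to answer the loss of their nerve was examined in skeletal muscle of mice that lack LSD1 in myofibers. The genes were *Myh3*, *Myh8* and *Actc1*, which encode sarcomeric proteins of developing muscle, and *Ncam1*, *Runx1*, *Hdac4* and *Dach2*, which belong to the response to denervation. They were found by symbol, and make up 7 of the 27041 genes of the count table. RNA-seq was performed on poly(A) RNA of muscles (gastrocnemius in the description of the study, skeletal muscle in the sample labels) from 9-week-old male C57BL/6J mice. Ctrl mice carried both *Kdm1a* alleles floxed around the first exon (LSD1 L2/L2). LSD1skm-/- mice carried the same floxed alleles together with HSA-Cre. This Cre recombinase is driven by a human skeletal muscle actin promoter and is active in myofibers, not in the other cells of the muscle. Libraries of 4 Ctrl and 2 LSD1skm-/- muscles had counts, and LSD1skm-/- replicates 3 and 4 were not analysed here. The counts summed to between 32616912 and 41278769 in Ctrl and to 30654828 and 37788092 in LSD1skm-/- libraries.

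During development, muscle fibers assemble their sarcomeres from embryonic and perinatal myosin heavy chains and from cardiac α-actin, and replace them after birth with adult myosins and skeletal α-actin. When a fiber loses its nerve, part of this program returns, acetylcholine receptor subunits are made along the whole fiber, and the histone deacetylase HDAC4 accumulates in nuclei close to the former synapse. HDAC4 then lowers the corepressor Dach2, which releases myogenin. *Dach2* is therefore known as the member of this pathway that falls after denervation while the others rise. LSD1, encoded by *Kdm1a*, is a histone demethylase of transcriptional complexes. The comparison asked which of these genes differ when it is lost from myofibers.

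The level of the targeted gene was read first. *Kdm1a* reached 22.9, 22.0 and 28.1 CPM (counts scaled to library size with the TMM method) in Ctrl replicates 1 to 3, 3.66 CPM in the library labelled Ctrl replicate 4, and 2.96 and 3.48 CPM in LSD1skm-/- replicates 1 and 2. The library labelled Ctrl replicate 4 thus lay beside the LSD1skm-/- libraries and against its label. The results for the members are therefore given with the labels as deposited (4 against 2) and again without the library labelled Ctrl replicate 4 (3 against 2). Markers of mature fast fibers (*Ckm*, *Acta1*, *Myh4* and 7 others) summed to between 193300 and 225900 CPM in Ctrl and to 188900 and 203100 CPM in LSD1skm-/- libraries, so the muscle label held in all of them.

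Reads per kilobase of transcript set *Actc1* and *Hdac4* apart from the other members, which lay close together. In the Ctrl libraries *Actc1* reached 728 ± 938 CPM per kb (mean ± SD, n = 4), and *Hdac4* followed with 4.11 ± 1.18 CPM per kb (n = 4). *Myh3* had 1.07 ± 0.261 and *Myh8* 1.01 ± 0.132 CPM per kb (n = 4), a pair that did not differ beyond its spread. *Ncam1* had 0.752 ± 0.0666, *Dach2* 0.648 ± 0.336 and *Runx1* 0.396 ± 0.138 CPM per kb (n = 4), and the libraries of neighbours among these 3 genes overlapped. Without the library labelled Ctrl replicate 4, *Actc1* had 261.9 ± 126.5, *Dach2* 0.804 ± 0.154 and *Ncam1* 0.741 ± 0.0773 CPM per kb (n = 3). *Dach2* then stood above *Ncam1*, and their libraries still overlapped. The lowest Ctrl library for *Myh8* lay above the highest for *Ncam1*. The order was *Actc1*, *Hdac4*, *Myh8*, *Ncam1*, *Myh3*, *Runx1* and *Dach2* in the LSD1skm-/- libraries, where *Actc1* had 2279 ± 935 and *Dach2* 0.247 ± 0.216 CPM per kb (n = 2). There *Myh8*, *Ncam1* and *Myh3* overlapped as neighbours, as did *Runx1* and *Dach2*. *Actc1* and *Dach2* also varied most over the 6 libraries, with coefficients of variation of 93.1% and 67.2%, against 9.11% for *Ncam1* and between 14.9% and 28.1% for the other members.

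**Figure D1:**
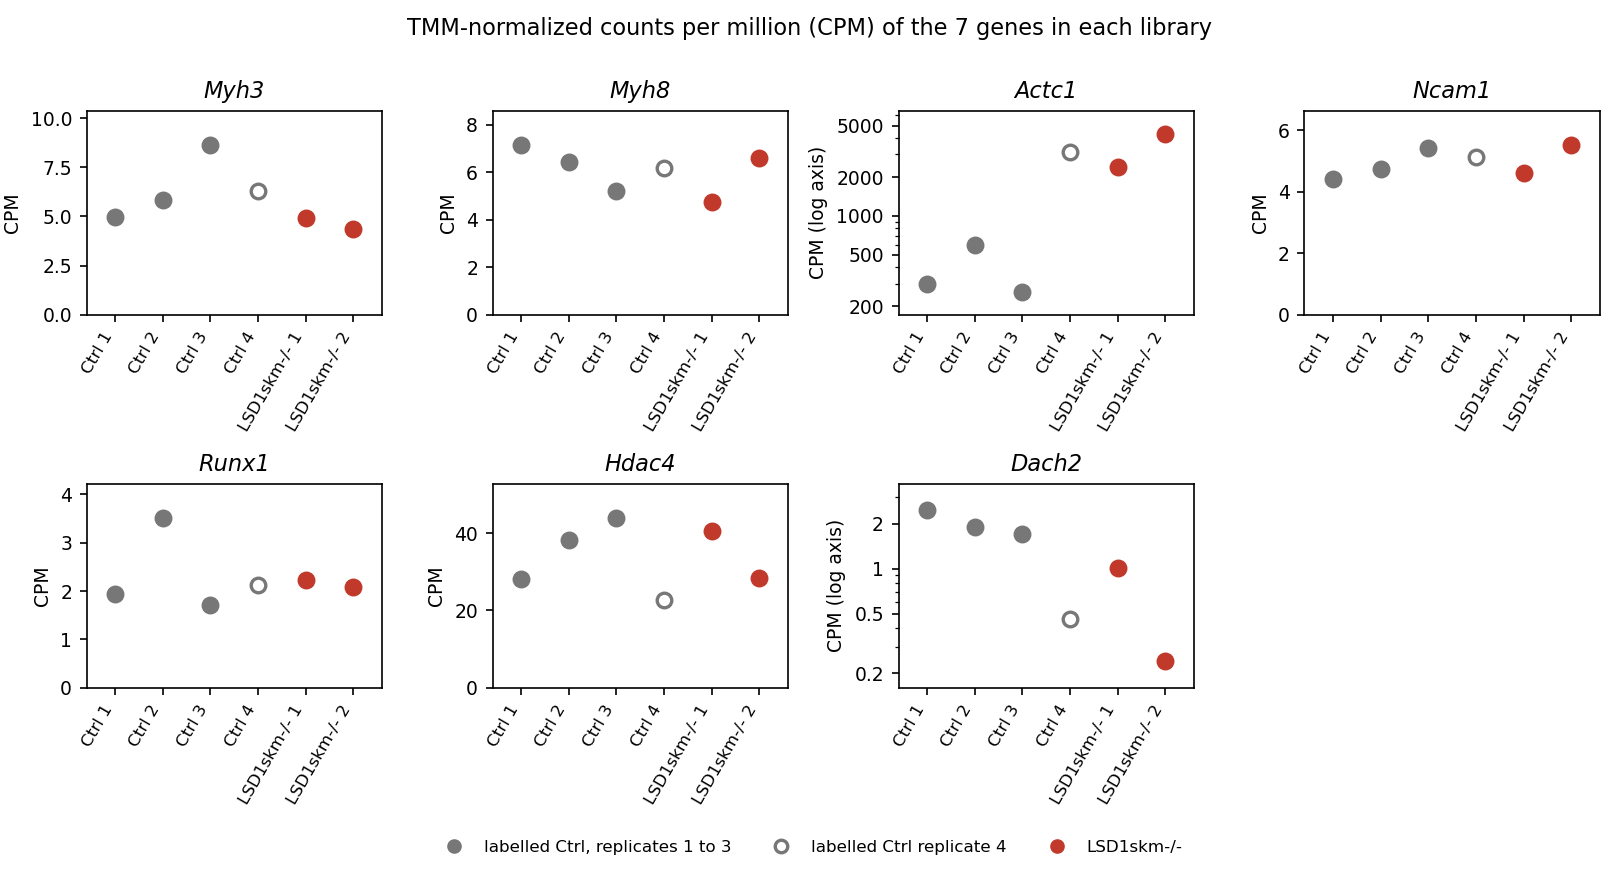
TMM-normalized CPM of each of the 7 genes (vertical axes, from 0 except for the logarithmic axes of *Actc1* and *Dach2*) in each library (horizontal axes), with filled grey points for Ctrl replicates 1 to 3, an open point for the library labelled Ctrl replicate 4 and red points for LSD1skm-/-. The open point lies with the red points for *Actc1* (3132 CPM against 2384 and 4331) and between them for *Dach2* (0.457 CPM against 1.01 and 0.239), whereas the groups are mixed for *Myh8*, *Ncam1*, *Runx1* and *Hdac4*.

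*Actc1* encodes cardiac α-actin, the main sarcomeric actin of fetal skeletal muscle. It lies on the minus strand of chr2:114047282-114053548 (GRCm38, GENCODE vM21). Its reads can be told from those of *Acta1*, the skeletal α-actin gene that replaces it, by sequence. The coding sequences are each 1131 bases long and differ at 155 positions (86.3% identity), and no stretch of 50 bases, the length of the reads, is found in both. The first 60 coding bases of each are shown because the actin result rests on telling these transcripts apart. Capitals mark the 9 positions at which they differ (GENCODE vM21, GRCm38, both on the minus strand, *Actc1* at chr2:114051972-114052031 and *Acta1* at chr8:123893638-123893697).
Actc1: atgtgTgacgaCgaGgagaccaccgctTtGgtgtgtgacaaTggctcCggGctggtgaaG
Acta1: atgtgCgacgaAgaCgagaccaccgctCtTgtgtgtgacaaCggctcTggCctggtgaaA

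*Actc1* had 299, 599.6 and 258 CPM in Ctrl replicates 1 to 3, 3132 CPM in the library labelled Ctrl replicate 4, and 2384 and 4331 CPM in LSD1skm-/- replicates 1 and 2. Ctrl replicates 1 to 3 were all far below both LSD1skm-/- libraries. The library labelled Ctrl replicate 4 lay between the LSD1skm-/- libraries, so that the groups overlapped by label. With all 6 libraries the log2 fold change was 1.65 (standard error 0.94, 95% interval -0.53 to 3.83, adjusted p = 0.606, edgeR's quasi-likelihood test), which did not pass the test. Without the library labelled Ctrl replicate 4 it was 3.12 (standard error 0.39, 95% interval 2.20 to 4.05, adjusted p = 0.00616, edgeR). *Actc1* then rose 8.71-fold in LSD1skm-/- muscle (95% interval 4.59 to 16.55). It ranked 140 by p-value among the 11364 genes tested, and a log2 fold change above 2 was found for 0.607% of them. No base of its transcript is part of a 50-base stretch found in another gene.

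*Acta1* was level over the libraries, with 33510, 32010, 36330 and 36250 CPM in Ctrl replicates 1 to 4 and 31170 and 36620 CPM in LSD1skm-/- replicates 1 and 2 (log2 difference -0.03, 95% interval -0.32 to 0.26, edgeR). *Actc1* therefore took a share of the reads per kilobase on *Actc1* and *Acta1* of 0.869%, 1.80% and 0.693% in Ctrl replicates 1 to 3, 7.82% in the library labelled Ctrl replicate 4, and 6.98% and 10.4% in LSD1skm-/- replicates 1 and 2. The mean share was 2.80% ± 3.38 (SD, n = 4) in Ctrl and 8.69% ± 2.42 (SD, n = 2) in LSD1skm-/- libraries (p = 0.2, exact two-sided permutation test, smallest p-value possible 0.0667). Without the library labelled Ctrl replicate 4 the Ctrl mean was 1.12% ± 0.598 (SD, n = 3) and the exact test gave p = 0.1, the smallest value that 3 against 2 libraries allow.

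**Figure D2:**
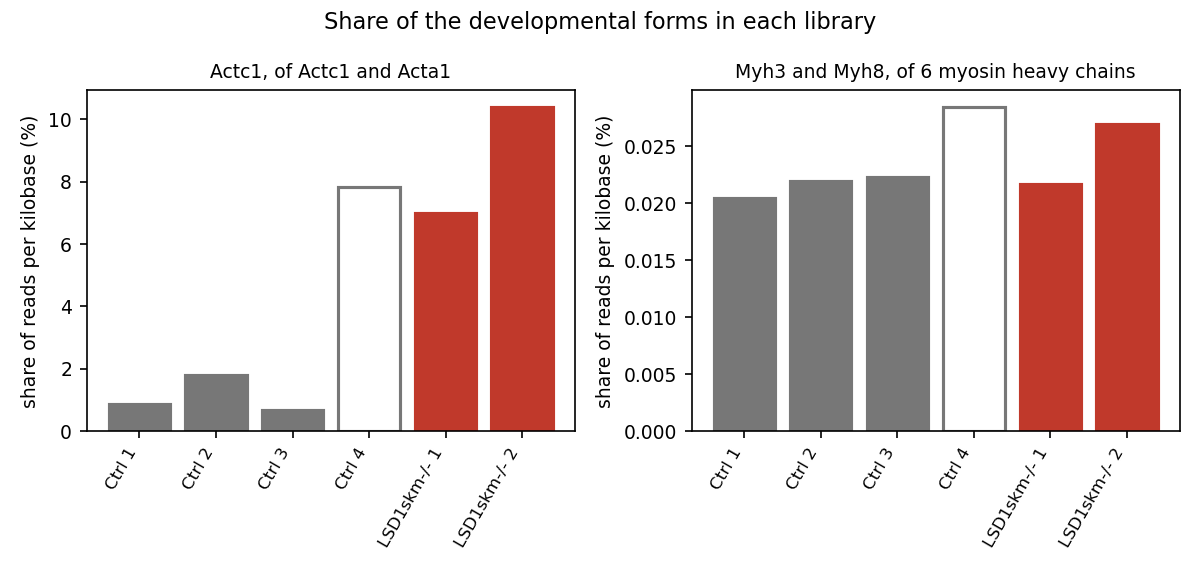
Share of developmental forms in reads per kilobase (vertical axes, percent, from 0) in each library, for *Actc1* among *Actc1* and *Acta1* (left) and for *Myh3* and *Myh8* together among *Myh1*, *Myh2*, *Myh3*, *Myh4*, *Myh7* and *Myh8* (right), with an open bar for the library labelled Ctrl replicate 4. The actin share is at most 1.80% in Ctrl replicates 1 to 3 and between 6.98% and 10.4% in the other libraries, whereas the myosin share lies between 0.0205% and 0.0285% in all 6.

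The actin of smooth muscle and the other cells of the tissue were set beside this result. *Acta2*, smooth muscle α-actin, had between 17.5 and 21.9 CPM in all libraries except the library labelled Ctrl replicate 4, which had 39.9 CPM. The 8 fibroblast markers summed to between 465 and 508 CPM in Ctrl replicates 1 to 3, to 736 CPM in the library labelled Ctrl replicate 4 and to 646 and 765 CPM in LSD1skm-/- libraries. They were thus high in the same libraries as *Actc1*. The 10 satellite cell markers did likewise (81.7 to 107 CPM, 116 CPM, and 111 and 115 CPM), and the 5 blood markers had 28.2 to 43.7 CPM, 52.2 CPM, and 64.1 and 65.8 CPM in the same order. None of these markers was at 0 in every library, although the fibroblast marker *Tcf21* was near 0. The 8 markers of smooth muscle and pericytes summed to between 316 and 421 CPM in Ctrl replicates 1 to 3, 469 CPM in the library labelled Ctrl replicate 4, and 370 and 331 CPM in LSD1skm-/- libraries. The 6 adipocyte markers followed another order, with 287, 240 and 168 CPM in Ctrl replicates 1 to 3, 407 CPM in the library labelled Ctrl replicate 4 and 164 and 170.3 CPM in LSD1skm-/- libraries. Of the 5 adipocyte markers tested, *Adipoq*, *Cidec*, *Plin1* and *Retn* were lower in both LSD1skm-/- libraries than in every Ctrl library and past the thresholds of the study in both comparisons, and none passed the adjusted test. The median log2 fold change of the adipocyte markers was -4.91 with all libraries and -4.43 without the library labelled Ctrl replicate 4, from few reads in LSD1skm-/- libraries. The part of these cells in the *Actc1* result was not tested, and in whole muscle fewer cells of a type and less RNA per cell cannot be told apart.

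The 250 bases before the RefSeq start site of *Actc1* were read because the gene carried the largest difference among the 7 genes. They lie on the minus strand of chr2:114052876-114053125 (GRCm38.p6). The whole window falls inside the gene as GENCODE bounds it (chr2:114047282-114053548), so by those bounds it is not upstream of the gene. Capitals mark a CArG box, the site of serum response factor, which begins 47 bases before the RefSeq start.
Actc1 promoter: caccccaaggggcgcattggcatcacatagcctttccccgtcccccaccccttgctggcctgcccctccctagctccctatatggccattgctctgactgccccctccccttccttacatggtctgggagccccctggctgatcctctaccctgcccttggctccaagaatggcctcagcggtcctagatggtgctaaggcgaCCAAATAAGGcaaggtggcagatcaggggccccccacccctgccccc
A CArG box was found in 1.47% of the 32851 promoter windows of this length, an E-box (CANNTG, the site of myogenic basic helix-loop-helix factors) in 66.2% and a MEF2 site in 2.92%, each searched on both strands. The *Actc1* window held neither an E-box nor a MEF2 site, which says only that these letters are not in these 250 bases. The motifs in the windows of the other members are given as matches, not as sites in use, and those of *Myh8* were an E-box 32 bases and a MEF2 site 99 bases before the start. *Myh3* had an E-box 191 bases before the start and *Runx1* had 3 in one of its windows, whereas the *Hdac4* window held none of the motifs. *Ncam1* had no window in the table.

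The developmental myosins did not rise with *Actc1*. *Myh3*, embryonic myosin heavy chain (chr11:67078300-67102291, plus strand), had 4.95, 5.85, 8.64 and 6.29 CPM in Ctrl replicates 1 to 4 and 4.92 and 4.33 CPM in LSD1skm-/- replicates 1 and 2, from between 156 and 298 reads per library. Both LSD1skm-/- libraries lay below all 4 Ctrl libraries, although LSD1skm-/- replicate 1 did so by less than 0.1 CPM. The log2 difference was -0.48 (standard error 0.23, 95% interval -1.02 to 0.07, adjusted p = 0.566, edgeR) and did not pass the test. Without the library labelled Ctrl replicate 4 it was -0.49 (95% interval -1.08 to 0.10, adjusted p = 0.341, edgeR). An increase of *Myh3* as large as that of *Actc1* lay outside both intervals.

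*Myh8*, perinatal myosin heavy chain (chr11:67277124-67308634, plus strand), had 7.15, 6.44, 5.19 and 6.17 CPM in Ctrl replicates 1 to 4 and 4.76 and 6.59 CPM in LSD1skm-/- replicates 1 and 2. LSD1skm-/- replicate 1 was the lowest library and LSD1skm-/- replicate 2 the second highest, so the groups overlapped. The log2 difference was -0.13 with all libraries (standard error 0.19, 95% interval -0.59 to 0.32, adjusted p = 0.831, edgeR) and -0.14 without the library labelled Ctrl replicate 4 (95% interval -0.62 to 0.34, adjusted p = 0.761, edgeR). Of the 50-base stretches of its transcript, 21.4% are found in another gene as well, mostly *Myh2*, *Myh1* and *Myh4*, its neighbours on chromosome 11. For *Myh3* this share is 4.81%. Unique alignments alone were kept, so the levels of these genes are uncertain to that extent.

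*Myh3* and *Myh8* together made up 0.0205%, 0.0220%, 0.0223% and 0.0285% of the reads per kilobase on 6 sarcomeric myosin heavy chain genes in Ctrl replicates 1 to 4, and 0.0217% and 0.0269% in LSD1skm-/- replicates 1 and 2. The difference of 0.000983 percentage points between the means was smaller than the spread between replicates (p = 0.933 with 4 against 2 libraries and 0.3 without the library labelled Ctrl replicate 4, exact two-sided permutation tests). Among the adult myosins, *Myh7* of slow fibers had 247, 242, 509.7 and 222 CPM in Ctrl replicates 1 to 4 and 35.3 and 86.5 CPM in LSD1skm-/- replicates 1 and 2. *Myh7* was lower in both LSD1skm-/- libraries than in every Ctrl library, the library labelled Ctrl replicate 4 included. Its log2 fold change was -2.32 with all libraries (adjusted p = 0.557, edgeR) and it fell without the library labelled Ctrl replicate 4 (-2.45, standard error 0.48, adjusted p = 0.0313, edgeR). *Myh1* and *Myh2*, the other adult fast myosins, had log2 differences of 0.17 and 0.08 with all libraries, and neither passed the test (adjusted p = 0.760 and 0.890, edgeR). *Myh4*, the main fast myosin, had 52910, 51340 and 57080 CPM in Ctrl replicates 1 to 3, 39180 CPM in the library labelled Ctrl replicate 4 and 39800 and 35250 CPM in LSD1skm-/- libraries. Its log2 difference was -0.42 (adjusted p = 0.557) with and -0.52 (adjusted p = 0.0662) without that library, neither past the adjusted test (edgeR). *Myh4* and *Myh7* were past the thresholds of the study in both comparisons.

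*Ncam1* encodes the neural cell adhesion molecule, which in innervated fibers is concentrated at the synapse and after denervation spreads over the fiber. It lies on the minus strand of chr9:49502136-49798925 and had 4.43, 4.74, 5.42 and 5.14 CPM in Ctrl replicates 1 to 4 and 4.60 and 5.53 CPM in LSD1skm-/- replicates 1 and 2. LSD1skm-/- replicate 1 lay within the Ctrl range and LSD1skm-/- replicate 2 just above it, and *Ncam1* varied least of the 7 genes. The log2 difference was 0.04 (standard error 0.16, 95% interval -0.34 to 0.42, adjusted p = 0.950, edgeR), and 0.06 without the library labelled Ctrl replicate 4 (95% interval -0.34 to 0.47, adjusted p = 0.877, edgeR). Satellite cells and Schwann cells also use this gene, and the 12 Schwann cell markers summed to between 51.7 and 175 CPM in Ctrl and to 62.0 and 101 CPM in LSD1skm-/- libraries. Their part in the *Ncam1* level was not tested.

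*Runx1*, a Runt-domain transcription factor induced by denervation (minus strand of chr16:92601466-92826149), had 1.94, 3.51, 1.71 and 2.13 CPM in Ctrl replicates 1 to 4 and 2.24 and 2.07 CPM in LSD1skm-/- replicates 1 and 2. Ctrl replicate 2 was the highest library and the other 5 lay close together. The log2 difference was -0.11 (standard error 0.32, 95% interval -0.85 to 0.64, adjusted p = 0.927, edgeR), and -0.14 without the library labelled Ctrl replicate 4 (95% interval -0.91 to 0.63, adjusted p = 0.847, edgeR). Blood-forming cells use *Runx1* too. The 12 immune cell markers summed to 99.5, 84.1, 39.8 and 65.9 CPM in Ctrl replicates 1 to 4 and to 60.8 and 99.6 CPM in LSD1skm-/- replicates 1 and 2, and their part in the *Runx1* level was not tested.

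*Hdac4* encodes the class IIa histone deacetylase that carries the denervation signal in this pathway (minus strand of chr1:91928779-92195699). It had 28.1, 38.2 and 43.9 CPM in Ctrl replicates 1 to 3, 22.8 CPM in the library labelled Ctrl replicate 4, and 40.6 and 28.3 CPM in LSD1skm-/- replicates 1 and 2. Both LSD1skm-/- libraries lay within the range of the Ctrl libraries. The log2 difference was 0.05 with all libraries (standard error 0.27, 95% interval -0.58 to 0.68, adjusted p = 0.963, edgeR) and -0.09 without the library labelled Ctrl replicate 4 (95% interval -0.61 to 0.42, adjusted p = 0.853, edgeR). Genes on the opposite strand overlap exons of *Ncam1*, *Runx1* and *Hdac4* (*Gm11149*, *Gm26626* and *Gm26720*), and the libraries were stranded but the strand setting of the counting is not stated.

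*Dach2*, the corepressor downstream of HDAC4, was the other member besides *Actc1* that set Ctrl replicates 1 to 3 apart from the remaining libraries, as *Kdm1a* did. It lies on the plus strand of chrX:113297510-113836386 and had 2.46, 1.91 and 1.71 CPM in Ctrl replicates 1 to 3, 0.457 CPM in the library labelled Ctrl replicate 4, and 1.01 and 0.239 CPM in LSD1skm-/- replicates 1 and 2. These levels rest on 85, 62, 59, 20, 32 and 9 reads, so Ctrl replicates 1 to 3 lay above all the others without overlap. Within each of these sides the order of the libraries was not that of *Kdm1a*. With a mean count of 44.5 reads *Dach2* was below the limit of 50 used for the other genes and was tested among the 14298 genes with a mean count of 10 or more. Its log2 difference was -1.40 with all libraries (standard error 0.75, 95% interval -3.15 to 0.35, adjusted p = 0.602, edgeR). Without the library labelled Ctrl replicate 4 it was -1.73 (standard error 0.52, 95% interval -2.94 to -0.52, unadjusted p = 0.0115, adjusted p = 0.121, edgeR). This is 3.32-fold more in Ctrl than in LSD1skm-/- libraries, past the thresholds of the study without adjustment but not past the adjusted test. DESeq2 gave an adjusted p = 0.0255 for the same libraries and genes. The LSD1skm-/- libraries differed from each other for *Dach2*. With the library labelled Ctrl replicate 4 kept, the log2 difference was -2.75 without LSD1skm-/- replicate 1 (adjusted p = 0.650) and -0.69 without LSD1skm-/- replicate 2 (adjusted p = 0.962, edgeR).

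The 250 bases before the first of the *Dach2* start sites are shown beside this result (RefSeq, GRCm38.p6, plus strand of chrX:113297260-113297509), with capitals for an E-box 71 bases before the start.
Dach2 promoter: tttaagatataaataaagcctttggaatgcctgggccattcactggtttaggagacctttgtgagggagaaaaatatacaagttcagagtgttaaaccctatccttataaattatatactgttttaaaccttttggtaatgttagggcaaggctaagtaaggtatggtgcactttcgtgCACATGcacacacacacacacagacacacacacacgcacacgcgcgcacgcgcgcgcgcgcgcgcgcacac
The E-box lies at the edge of a run of CA repeats, and the window of the second start site held none of the motifs searched.

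With all 6 libraries, none of the 6 members tested passed an adjusted p-value of 0.05 or the thresholds of the study (p-value under 0.05 with a fold change above 1.3 or below 0.77). Of all 11364 genes tested, 0.0% and 6.31% passed. At an unadjusted p-value under 0.05 there were 1011 genes (8.9%) and no member. DESeq2 called 46 genes by its adjusted p-value and no member, but it gave *Actc1* no p-value and so did not test it. LSD1skm-/- libraries lay apart from all Ctrl libraries for 1 of the 7 members, *Myh3*, and for 17.8% of all genes tested. Without the library labelled Ctrl replicate 4, 1 of the 6 members tested, *Actc1*, passed the adjusted test, beside 5.39% of all genes (4.36% of all genes passed it upward), and it also passed the thresholds of the study, beside 15.2% of all genes. The groups then did not overlap for 3 of the 7 members, *Actc1*, *Myh3* and *Dach2*, beside 37.7% of all genes (36.3% at the lower count limit), so the share of members was close to that of genes in general. At that lower limit 4.61% of the genes passed the adjusted test and 15.2% the thresholds of the study, *Dach2* among the latter.

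**Figure D3:**
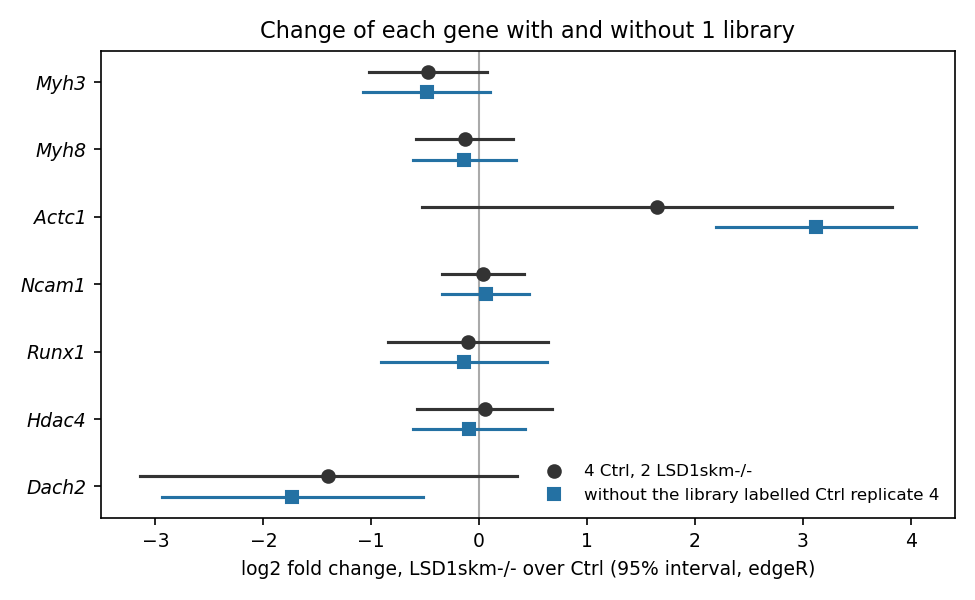
Log2 fold change of each of the 7 genes (horizontal axis, LSD1skm-/- over Ctrl, with 95% intervals from edgeR), with black circles for all 6 libraries and blue squares without the library labelled Ctrl replicate 4. The interval of *Actc1* excludes 0 only without that library (2.20 to 4.05), as does that of *Dach2* (-2.94 to -0.52), and the intervals of the other 5 genes hold 0 in both comparisons.

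Among 22 further genes of developing or regenerating muscle, 16 were tested, with a median log2 fold change of -0.13 beside -0.008 over all genes. None passed the adjusted test with all libraries, and without the library labelled Ctrl replicate 4 *Igf2* and *H19* rose (median 0.015, beside -0.006 over all genes). *Igf2*, a fetal growth factor, had 0.608, 0.678 and 0.725 CPM in Ctrl replicates 1 to 3, 2.86 CPM in the library labelled Ctrl replicate 4 and 5.51 and 4.20 CPM in LSD1skm-/- replicates 1 and 2. Its log2 fold change was 1.97 (adjusted p = 0.557) with and 2.85 (standard error 0.22, adjusted p = 0.00133) without that library (edgeR). *H19*, the imprinted RNA beside *Igf2*, was chosen after its values were seen because it passed the test. Its log2 fold change was 0.81 (adjusted p = 0.619) with and 1.38 (adjusted p = 0.0126) without that library (edgeR). The slow troponin genes *Tnnc1*, *Tnni1* and *Tnnt1*, which fetal fibers share with adult slow fibers, passed only the thresholds of the study. *Tnnc1* had 72.9, 63.4, 128 and 77.1 CPM in Ctrl replicates 1 to 4 and 8.79 and 31.7 CPM in LSD1skm-/- replicates 1 and 2. *Tnni1* and *Tnnt1* had log2 differences of -1.53 and -1.52 with all libraries (adjusted p = 0.557 for each, edgeR). The atrial and embryonic myosin light chain gene *Myl4*, chosen after its values were seen, had log2 differences of 0.001 and 0.25 that passed neither test (adjusted p = 0.999 and 0.696, edgeR).

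Of 31 further genes of the denervation response, 27 were tested, and the median log2 fold change was 0.101 with all libraries and -0.006 without the library labelled Ctrl replicate 4. None passed the adjusted test with all libraries. Without that library *Chrna1*, *Chrnb1* and *Kcnn3* rose, and *Mstn* and *Fgfbp1* fell. By the adjusted test these were 3 genes upward and 2 downward of 27, beside 5.39% of all genes in either direction. *Kcnn3*, the SK3 potassium channel, had 1.302, 1.05 and 1.48 CPM in Ctrl replicates 1 to 3, 3.31 CPM in the library labelled Ctrl replicate 4 and 3.03 and 2.71 CPM in LSD1skm-/- libraries (log2 fold change 1.17 without that library, adjusted p = 0.0273, edgeR). *Fgfbp1*, a secreted partner of fibroblast growth factors at the synapse, had 5.64, 6.56 and 9.33 CPM in Ctrl replicates 1 to 3, 1.21 CPM in the library labelled Ctrl replicate 4 and 0.662 and 1.25 CPM in LSD1skm-/- libraries. The log2 fold change of *Fgfbp1* was -2.55 with all libraries (adjusted p = 0.557) and -2.89 without the library labelled Ctrl replicate 4 (standard error 0.34, adjusted p = 0.00492, edgeR). *Mstn*, myostatin, an inhibitor of muscle growth, had 158, 102 and 124 CPM in Ctrl replicates 1 to 3 and between 47.5 and 57.2 CPM in the other 3 libraries (log2 fold change -1.34 without that library, adjusted p = 0.00898, edgeR). *Gadd45a*, a stress response gene, had 33.5 to 46.5 CPM in Ctrl and 47.2 and 54.6 CPM in LSD1skm-/- libraries, without passing the test (log2 difference 0.29, adjusted p = 0.571, edgeR). The ubiquitin ligase gene *Trim63*, chosen after its values were seen, differed by 0.12 and -0.09 on the log2 scale and passed neither test (adjusted p = 0.948 and 0.932, edgeR).

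The acetylcholine receptor and its partners were examined as 13 genes, of which 12 were tested (median log2 fold change 0.154, and 0.270 without the library labelled Ctrl replicate 4). *Chrna1*, the α-subunit, had 15.9, 16.1 and 12.3 CPM in Ctrl replicates 1 to 3, 26.2 CPM in the library labelled Ctrl replicate 4 and 23.1 and 24.3 CPM in LSD1skm-/- replicates 1 and 2 (log2 fold change 0.42, adjusted p = 0.630 with, and 0.69, adjusted p = 0.0367 without that library, edgeR). *Chrnb1*, the β-subunit, had 33.1, 29.5 and 28.3 CPM in Ctrl replicates 1 to 3, 68.9 CPM in the library labelled Ctrl replicate 4 and 51.6 and 58.0 CPM in LSD1skm-/- libraries (0.45, adjusted p = 0.683, and 0.86, adjusted p = 0.00694, edgeR). Both had their highest level in the library labelled Ctrl replicate 4. *Chrnd*, the δ-subunit, differed from them in that this library, with 2.24 CPM, lay with Ctrl replicates 1 to 3 (1.85 to 2.23 CPM) and below LSD1skm-/- libraries (3.72 and 3.40 CPM). Its log2 difference was 0.74 with all libraries (unadjusted p = 0.00491, adjusted p = 0.557, edgeR) and 0.77 without that library (adjusted p = 0.0621, edgeR), past the thresholds of the study in both. *Chrne*, the adult ε-subunit, had between 10.1 and 13.2 CPM in all libraries, and *Chrng*, the fetal γ-subunit that denervation brings back, had at most 0.174 CPM in any library and was too low to be tested. *Musk*, the receptor kinase that gathers these receptors, had 15.1 CPM in the library labelled Ctrl replicate 4, 29.7 and 15.8 CPM in LSD1skm-/- libraries and 25.0 to 39.0 CPM in Ctrl replicates 1 to 3 (log2 difference -0.24, adjusted p = 0.846, edgeR). *Ache*, acetylcholinesterase of the synaptic cleft, had 28.2, 35.5 and 26.4 CPM in Ctrl replicates 1 to 3, 40.4 CPM in the library labelled Ctrl replicate 4 and 39.6 and 51.7 CPM in LSD1skm-/- libraries. Like *Chrnd*, *Ache* was past the thresholds of the study in both comparisons but not past the adjusted test (log2 difference 0.48, adjusted p = 0.557 with, and 0.61, adjusted p = 0.0895 without the library labelled Ctrl replicate 4, edgeR). The other genes of this list, *Rapsn*, *Colq*, *Etv5*, *Dok7*, *Lrp4* and *Utrn*, lay between -0.28 (*Utrn*) and 0.27 (*Rapsn*) on the log2 scale with all libraries, and none passed the test. Without the library labelled Ctrl replicate 4 they lay between -0.20 (*Utrn*) and 0.37 (*Rapsn*), and none passed the adjusted test. Of the 12 genes tested, 6 then had LSD1skm-/- libraries above all Ctrl libraries, beside groups that did not overlap for 37.7% of all genes.

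**Figure D4:**
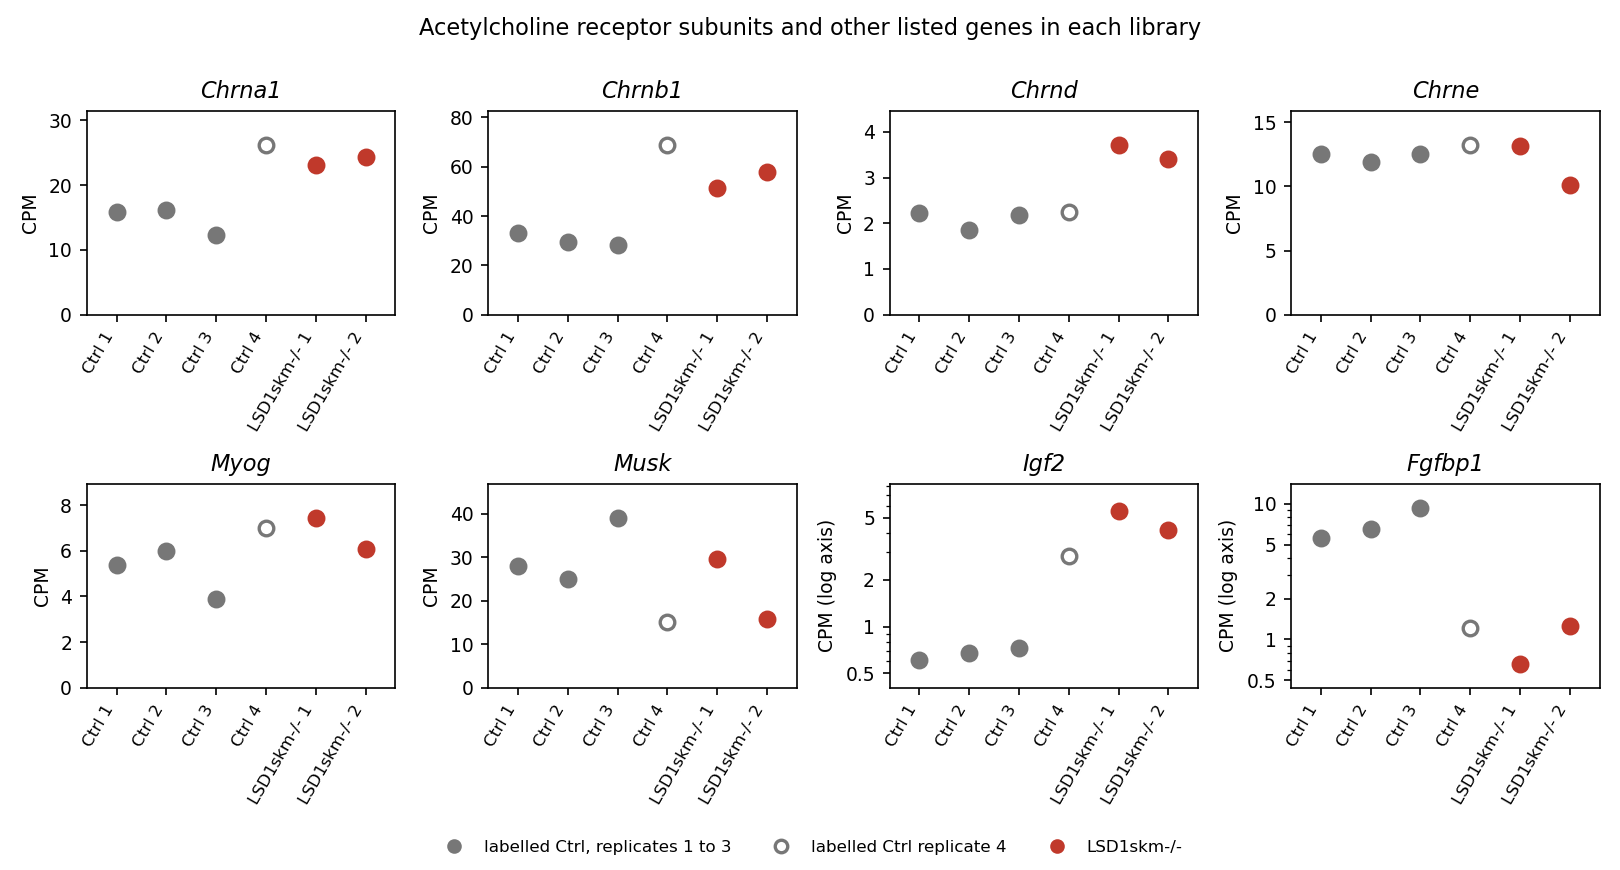
TMM-normalized CPM (vertical axes, from 0 except for the logarithmic axes of *Igf2* and *Fgfbp1*) of 4 acetylcholine receptor subunits, *Myog*, *Musk*, *Igf2* and *Fgfbp1* in each library, with an open point for the library labelled Ctrl replicate 4. The open point stands with the LSD1skm-/- libraries for *Chrna1*, *Chrnb1* and *Fgfbp1*, and with Ctrl replicates 1 to 3 for *Chrnd* (2.24 CPM), while *Chrne* stays between 10.1 and 13.2 CPM.

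The genes that link HDAC4, Dach2 and myogenin showed no call. All 16 were tested, none passed the adjusted test in either comparison, and their median log2 fold change was -0.167 with all libraries and -0.182 without the library labelled Ctrl replicate 4. *Myog*, the myogenic factor that Dach2 restrains, had 5.38, 5.98, 3.88 and 6.996 CPM in Ctrl replicates 1 to 4 and 7.44 and 6.09 CPM in LSD1skm-/- replicates 1 and 2, with log2 differences of 0.28 (adjusted p = 0.702) and 0.41 (95% interval -0.08 to 0.91, adjusted p = 0.334, edgeR). *Dach1*, the close relative of *Dach2*, had between 3.04 and 5.11 CPM in Ctrl and 3.78 and 3.46 CPM in LSD1skm-/- libraries, without the separation that *Dach2* had. *Hdac9*, another class IIa deacetylase gene, had between 1.71 and 3.57 CPM in Ctrl and 1.26 and 1.83 CPM in LSD1skm-/- libraries. Without the library labelled Ctrl replicate 4, *Camk2d* passed the thresholds of the study upward and *Camk2b* and *Mef2c* downward. *Mef2c*, a transcription factor that class IIa deacetylases bind, had 508, 659.6 and 580.3 CPM in Ctrl replicates 1 to 3, 389 CPM in the library labelled Ctrl replicate 4 and 440.5 and 392.4 CPM in LSD1skm-/- libraries (log2 difference -0.48, adjusted p = 0.101, edgeR). The other genes of this list were *Hdac5*, *Hdac7*, *Mef2a*, *Mef2d*, *Camk2g*, *Myod1*, *Nr4a1*, *Dnajb5*, *Pfkm* and *Eno3*. With all libraries their log2 differences lay between -0.29 (*Hdac5*) and 0.25 (*Nr4a1*), and without the library labelled Ctrl replicate 4 between -0.32 (*Hdac5*) and 0.39 (*Nr4a1*).

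Of 6 relatives and partners of Runx1, 4 were tested and none passed the adjusted test in either comparison (median log2 fold change -0.156 and -0.193). *Runx2* and *Runx3* had at most 0.585 and 0.339 CPM. *Runx1t1*, *Cbfa2t2* and *Cbfa2t3*, of a family of Runx-associated corepressors, had log2 differences of -0.61, -0.02 and 0.38 with all libraries (adjusted p = 0.561, 0.961 and 0.557, edgeR). *Cbfb*, the shared subunit of the Runx factors, had 91.7, 105 and 132 CPM in Ctrl replicates 1 to 3, 76.0 CPM in the library labelled Ctrl replicate 4 and 85.2 and 80.0 CPM in LSD1skm-/- libraries. Among 10 adhesion genes related to *Ncam1* or its polysialic acid, 5 were tested, and *Mcam*, the adhesion molecule CD146, rose without the library labelled Ctrl replicate 4 (log2 fold change 1.16, standard error 0.16, adjusted p = 0.00898, edgeR). *Mcam* had 14.4, 14.2 and 18.4 CPM in Ctrl replicates 1 to 3, 36.2 CPM in the library labelled Ctrl replicate 4 and 30.4 and 39.3 CPM in LSD1skm-/- libraries. The satellite cell gene *Cdh15* was also higher in both LSD1skm-/- libraries (24.4 and 25.1 CPM) than in all Ctrl libraries (18.7 to 23.4 CPM), by 0.25 on the log2 scale, without passing the test (adjusted p = 0.560, edgeR). *L1cam*, a neural adhesion molecule, was lower in both LSD1skm-/- libraries (1.51 and 0.984 CPM) than in Ctrl replicates 1 to 3 (1.59 to 2.38 CPM), without passing the test (log2 difference -0.59, adjusted p = 0.333, edgeR).

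The genes whose pattern over the 6 libraries was most like that of each of the 6 members tested at the limit of 50 were sought by the root mean square difference of centred log2 CPM. For *Actc1* they were *Ak4*, which encodes a mitochondrial adenylate kinase (difference 0.198), and *Fam174b* (0.358), whereas *Actc1* itself deviated from its own mean by 1.64. *Ak4* had 2.08, 3.60 and 1.48 CPM in Ctrl replicates 1 to 3, 19.7 CPM in the library labelled Ctrl replicate 4 and 21.0 and 26.9 CPM in LSD1skm-/- libraries. For *Hdac4* they were *Homer1* (0.080) and *Nr3c1*, which encodes the glucocorticoid receptor (0.085), with *Nr3c1* at 88.8, 109, 116 and 69.5 CPM in Ctrl replicates 1 to 4 and 113 and 79.1 CPM in LSD1skm-/- libraries. For *Runx1* they were *Lrmda* (0.084) and *Lrp4*, the muscle receptor for agrin (0.115), and *Lrp4* too was highest in Ctrl replicate 2 (15.8 CPM, against 6.73 to 10.1 CPM elsewhere). Genes as near to *Ncam1* (*Grhpr* and *Vps35l*), *Myh3* (*Nrarp* and *Abcb1a*) and *Myh8* (*Tmem208* and *Sec11c*) differed from them by at most 0.076. These are likenesses over 6 libraries and carry no test.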

How the data were processed

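From stranded poly(A) libraries the authors obtained single-end reads 50 bases long. They discarded adapter dimers, aligned to mm10, retained unique alignments and deposited raw counts for each gene. The study names htseq-count and HOMER, and the aligner and strand setting are not given in the sources used here. The submitters' processing notes name bcl2fastq 2.20.0.422.

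Counts of 6 of the 8 labelled libraries were read. The 11364 of 27041 genes whose counts averaged more than 50 were compared with edgeR 4.0.16 in R 4.3.3 (TMM scaling, quasi-likelihood test, genotype as the only term, Benjamini-Hochberg adjustment over all genes tested), and *Dach2* among genes with a mean of 10 or more (14298). Standard errors came from the fold change and its F statistic, and 95% intervals from the t distribution with edgeR's degrees of freedom. CPM were TMM-scaled. Shares were compared with exact permutation tests over libraries. The planned comparison of 4 against 4 became 4 against 2. The labels do not say that replicates are separate mice, so p-values measure the spread between these samples, which may be technical. No library repeated another, since chi-square divided by its degrees of freedom was 32.9 to 127 between libraries. The library labelled Ctrl replicate 4 had 32.9 and 46.5 against LSD1skm-/- replicates 1 and 2, and 67.8 to 95.4 against Ctrl replicates 1 to 3. Between Ctrl replicates 1 to 3 the values were 33.2 to 40.8. Counting error adds to the spread of members with few reads, such as *Dach2* (9 to 85), *Runx1* (59 to 114) and *Ncam1* (146 to 225). Its part was not separated from the other spread between libraries. The number of LSD1skm-/- libraries limits precision for all members.

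The members, gene lists and tests were chosen with earlier results of these data known. The genes named are the members, *Kdm1a*, 4 lists in full (adult myosins and actin, HDAC4 pathway, receptor genes, Runx partners), from 3 further lists the 3 largest changes among genes whose groups did not overlap, and the 2 nearest genes to each member except *Dach2*, and exceptions are marked. The fit was tested on simulated data with the same dispersion for every gene and no library against its label, a setting simpler than these data. Alternatives were DESeq2 1.42.0, other scalings and count limits, a replicate block and each library left out. Giving results without the library labelled Ctrl replicate 4 followed from its *Kdm1a* counts. Annotation is from GENCODE vM21 and promoters from RefSeq, where 6 of the 7 genes matched, with 8 windows. Genes sharing a symbol (29 entries, 14 symbols) were kept apart. Protein sequences and LSD1 binding sites were not analysed here.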

Additional observations from a re-analysis of the deposited data

Results flagged for a closer look

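*Kdm1a* in the library labelled Ctrl replicate 4 stood apart from the rest of its group. The gap between this library and the next Ctrl library took up 0.879 of the range of the 4 Ctrl libraries (log2 CPM), above the 95% limit of Dixon's test for 4 samples. Of 10 values examined in this way (the 7 genes, *Kdm1a* and the shares of *Actc1* and of *Myh3* with *Myh8*), this was the 1 that passed, and chance marks about 1 in 20 groups. In the same library *Dach2* (0.778), the share of *Myh3* with *Myh8* (0.739), *Actc1* (0.663) and its share (0.605) were displaced as well. *Hdac4* was displaced less (0.319). Another library stood at the edge for *Runx1* (0.699, Ctrl replicate 2), *Myh3* and *Myh8* (0.571 and 0.542, Ctrl replicate 3) and *Ncam1* (0.341, Ctrl replicate 1). None of these values passed the limit, and gaps of this size were not particular to the library labelled Ctrl replicate 4.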

How the results depend on the processing

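Leaving out the library labelled Ctrl replicate 4 moved the gene counts, *Kdm1a* and *Actc1* most, whereas the other members moved most with other libraries. With each library left out in turn, the number of genes with an adjusted p-value under 0.05 was 0 to 612 (6 with Ctrl replicate 3 left out, 612 with the one labelled Ctrl replicate 4 left out, and 0 in the others and with all libraries), and that of genes past the thresholds of the study was 340 to 1724 (717 with all, 474 without Ctrl replicate 1, 340 without LSD1skm-/- replicate 2). The number of members was 0 to 1 by either rule (*Actc1* once the one labelled Ctrl replicate 4 was dropped, and *Myh3*, by the thresholds of the study, once Ctrl replicate 1 was). The log2 fold change was -2.91 to -2.32 for *Kdm1a*, 1.15 to 3.12 for *Actc1*, -2.75 to -0.69 for *Dach2* and -0.58 to -0.30 for *Myh3*. It changed sign for *Myh8* (-0.390 to 0.0755, positive without LSD1skm-/- replicate 1), for *Ncam1* (-0.101 to 0.159, with -0.0099 without Ctrl replicate 1 and -0.101 without LSD1skm-/- replicate 2) and for *Runx1* (-0.225 to 0.157, positive without Ctrl replicate 2). It also did for *Hdac4* (-0.236 to 0.288, with -0.0214, -0.0920 and -0.236 without Ctrl replicate 1, Ctrl replicate 4 or LSD1skm-/- replicate 1). The difference in the actin share was 4.19 to 7.61 and that in the myosin share -0.00166 to 0.00362 percentage points. DESeq2 called 46 genes with all libraries and gave *Actc1* no p-value. No filter beyond 1 count gave 149 genes by adjusted p-value and 1909 by the thresholds of the study, with 3 members among the latter (*Actc1*, *Dach2* and *Myh3*). Settings combined after seeing the data with leaving out the library labelled Ctrl replicate 4 gave 659 and 2168 genes (mean count of 10 or more), 1056 and 1664 (DESeq2), 721 and 1854 (library size scaling) and 615 and 1727 (upper-quartile scaling) by the same rules in that order. Each called 1 member by adjusted p-value (*Actc1*) and 1 by the thresholds of the study, or 2 with the lower count limit (*Actc1* and *Dach2*). Counts of members at the limit of 50 leave out *Dach2*, which lay below it. Tested at the lower limit with DESeq2, *Dach2* had an adjusted p = 0.0255. *Hdac4* was -0.0985, -0.1016, -0.0185 and -0.0913 under these settings. Of 142 values of single genes, *Kdm1a* included and counting the reported ones, 106 kept direction and side of the threshold, 17 passed it in addition and 11 changed sign. The 106 include *Actc1* with DESeq2 and all libraries, which kept its direction but had no p-value to place at the threshold. Scaling moved the median of all genes by under 0.1 on the log2 scale.

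The replicate numbers could be used as a block for replicates 1 and 2 only, which leaves out Ctrl replicate 3 and the library labelled Ctrl replicate 4. With the replicate block, 727 genes passed by adjusted p-value and 1702 by the thresholds of the study. Of the members at the limit of 50, 1 passed each rule (*Actc1*, log2 fold change 2.93, adjusted p = 1.545e-09, edgeR). *Dach2*, tested at the lower count limit, was -1.96 with the block and passed as well (adjusted p = 0.00749, edgeR). In the same libraries without the block *Dach2* was -1.85 (adjusted p = 0.111, edgeR). The same 4 libraries without the block gave 504 and 1692 genes and 1 member (*Actc1*) by each rule. Deviations of same-numbered libraries correlated at -0.233 and -0.0334 over 11364 genes. The 2 LSD1skm-/- libraries deviate from their mean by equal and opposite amounts. Each Ctrl library therefore correlates equally and oppositely with them, so this check cannot decide whether same-numbered samples were paired. The block changed no other call among the members. Precision is limited by the number of LSD1skm-/- libraries, and for members with few reads, such as *Dach2* (9 to 85), also by counting.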
